A study of Mus musculus with 14 samples.

Results

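The Sox genes encode transcription factors that share a DNA-binding domain first described in the sex-determining factor Sry. The genes described here were Sox2, Sox4, Sox5, Sox6, Sox9, Sox10, Sox11, Sox17 and Sox18, 9 genes chosen by name. They were followed through every probe set annotated with exactly 1 of them, which gave 35 probe sets of 45037 that were not array controls. No probe set named a member together with another gene. Sox4 had 8 probe sets, Sox5 had 7, Sox11 had 6, Sox6 had 4, Sox9 and Sox10 had 3 each, Sox17 had 2, and Sox2 and Sox18 had 1 each. A probe set is a group of short probes for the same transcript, and its value depends on its own probes, so levels are compared between samples and never between probe sets.

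Expression was measured on Affymetrix arrays of the mouse genome in 4 groups of C57BL/6 mice: adult hippocampus, pup hippocampus, adult heart and pup heart. The adults were males 10 weeks old, whose RNA was purchased, with 2 biological replicates per tissue and 2 technical arrays for each. The pups were 7 days old, with 3 biological replicates per tissue, 1 array for each and tissue dissected for the study, and their sex was not given. Technical arrays were averaged, which left 10 samples. No mouse carried a transgene or received a treatment. No label says that different adult animals gave the purchased replicates, and some labels number the 4 arrays of an adult tissue as 4 replicates. The study's methods likewise speak of 4 replicates of each tissue from an adult male mouse. Arrays of the same adult replicate correlated at only 0.09 after group means were removed (limma's consensus over probe sets). Technical arrays were thus hardly more alike than arrays of different replicates. The p-values cover the spread among these samples, part or, in adults, all of which may be technical. Every adult sample differed from every pup sample in age, in RNA source and in preparation, and in the age comparisons these cannot be told apart. Comparisons of hippocampus with heart were made within a single age and RNA source.

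The values were log2 expression values between 2.67 and 16.0 with a median of 8.85, and arrays within a group correlated at r of 0.931 to 0.968 across probe sets. The 18 hybridization control probe sets averaged 10.80 in adult hippocampus, 13.15 in pup hippocampus, 10.73 in adult heart and 13.16 in pup heart. The difference between 3′ and 5′ probe sets of Gapdh, a measure of RNA length, spanned 0.66 to 1.60 in adult hippocampus, 2.90 to 4.97 in pup hippocampus, 1.50 to 1.80 in adult heart and 0.72 to 3.80 in pup heart. For Gapdh the adult arrays lay below the pup arrays in hippocampus and within their range in heart. The same difference for Actb spanned -0.03 to 0.31 in adult hippocampus, 1.84 to 2.48 in pup hippocampus, -0.16 to 0.16 in adult heart and 0.39 to 0.82 in pup heart, so that it separated the ages in both tissues. For Actb the pup tissues were also apart, with every pup hippocampus array above every pup heart array. The part of RNA length in the age and tissue differences below, and of the control levels in the age differences, was not tested. Of 16 cardiomyocyte markers, 12 were lower in adult hippocampus than in adult heart and 15 were lower in pup hippocampus than in pup heart, as the tissue labels have it. Actc1, cardiac actin, read 8.30 and 8.51 in adult hippocampus, but 14.76, 12.49 and 10.31 in pup hippocampus replicates 1, 2 and 3. Myl2 (11.15, 8.90 and 7.27) and Myh6 (11.68, 9.76 and 8.85) fell in the same order. Other cardiac markers did not, such as Pln (11.86, 9.98 and 11.75) and Myl7 (7.53, 7.56 and 7.86). The pup hippocampus samples thus carried unequal levels of several cardiac transcripts. In whole tissue, fewer cells of a type and less RNA per cell cannot be told apart.

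Sox factors bind short AT-rich DNA sites in the minor groove, bend the DNA and usually act together with partner factors. They fall into subgroups by sequence. Sox2, of the B1 subgroup, maintains neural stem cells, while Sox4 and Sox11, of the C subgroup, are known for immature neurons and for the developing outflow tract of the heart. Sox5 and Sox6, of the D subgroup, lack an activation domain and act as cofactors in cartilage, glia and cortical neurons, and Sox6 also in muscle. Sox9 and Sox10, of the E subgroup, serve astrocyte specification, cartilage and heart valves, and the neural crest and oligodendrocyte lineage. Sox17 and Sox18, of the F subgroup, act in endothelium, Sox17 mainly in arteries and Sox18 in blood and lymphatic vessels.

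Of the 9 members, 5 had a promoter window in RefSeq's table (build GRCm38.p6). The 250 bases before the annotated start are shown for Sox4, which had the largest age difference of the members, for its subgroup relative Sox11, and for Sox2, which had the largest tissue difference. All 3 are printed 5′ to 3′ on the strand of the gene, with CCAAT boxes (CCAAT or its reverse complement ATTGG) in capitals. The Sox4 window lies at chr13:28953700-28953949 (minus strand), that of Sox11 at chr12:27342719-27342968 (minus strand) and that of Sox2 at chr3:34649745-34649994 (plus strand).
Sox4: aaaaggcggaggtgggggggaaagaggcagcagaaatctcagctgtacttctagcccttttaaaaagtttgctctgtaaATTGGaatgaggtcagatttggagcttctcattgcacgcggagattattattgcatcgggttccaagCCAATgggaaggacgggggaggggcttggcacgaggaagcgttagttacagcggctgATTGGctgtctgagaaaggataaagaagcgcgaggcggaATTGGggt
Sox11: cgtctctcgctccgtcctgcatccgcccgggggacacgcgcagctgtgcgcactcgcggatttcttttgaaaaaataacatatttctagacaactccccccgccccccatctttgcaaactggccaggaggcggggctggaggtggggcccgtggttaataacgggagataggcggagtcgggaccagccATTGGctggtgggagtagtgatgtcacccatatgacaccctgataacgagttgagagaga
Sox2: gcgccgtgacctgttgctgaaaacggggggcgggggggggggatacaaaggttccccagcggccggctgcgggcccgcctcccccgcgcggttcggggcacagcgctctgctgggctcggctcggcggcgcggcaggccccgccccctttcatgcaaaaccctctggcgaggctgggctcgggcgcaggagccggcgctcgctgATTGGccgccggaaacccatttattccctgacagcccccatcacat

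Sox4 held 4 CCAAT boxes, and Sox11 and Sox2 held 1 each. A CCAAT box was found on either strand in 33.8% of 32817 windows of the same length. The letters TATAAA, found in 12.4% of windows, and ACAAT, a core of the sites that Sox factors bind, found in 27.7%, were searched on both strands and not found in these 3 windows. These matches describe the letters and are not binding sites.

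Across the 4 comparisons of 2 groups, 25 of the 35 probe sets, with at least 1 of each gene, passed limma's test at an adjusted p under 0.05, and 10 passed in none. Over all probe sets, 14.9% passed for age in hippocampus, 20% for age in heart, 22.2% between adult tissues and 14.3% between pup tissues. The share of all probe sets passing in at least 1 of the 4 was not counted, so the 25 cannot be set against it. In hippocampus, 4 member probe sets were higher and 7 lower in adults than in pups, where 8.38% of all probe sets were higher and 6.52% lower. The count of 11 fell to 4 without adult hippocampus replicate 1, to 5 without adult hippocampus replicate 2 and to 6 without pup hippocampus replicate 3, and was 8 without pup hippocampus replicate 1, the sample highest in Actc1. Over all probe sets the share called fell too, from 14.9% to 7.99% without pup hippocampus replicate 3 and to 10.4% without pup hippocampus replicate 1. It also fell in the fits without an adult hippocampus sample. In heart, 8 were higher and 4 lower in adults, where 11.7% of all probe sets were higher and 8.32% lower. This count of 12 fell to 6 without adult heart replicate 1 and to 7 without adult heart replicate 2. Over all probe sets 20% were called in heart with all samples, and fewer in both of these fits. The probe sets called with age in both tissues numbered 7, of the genes Sox2, Sox4 and Sox17, and each had the same direction in both. The share of all probe sets called with age in both tissues was not counted. The median difference over the 35 probe sets was -0.07 in hippocampus and 0.35 in heart, beside 0.12 and 0.11 over all probe sets.

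**Figure D1:**
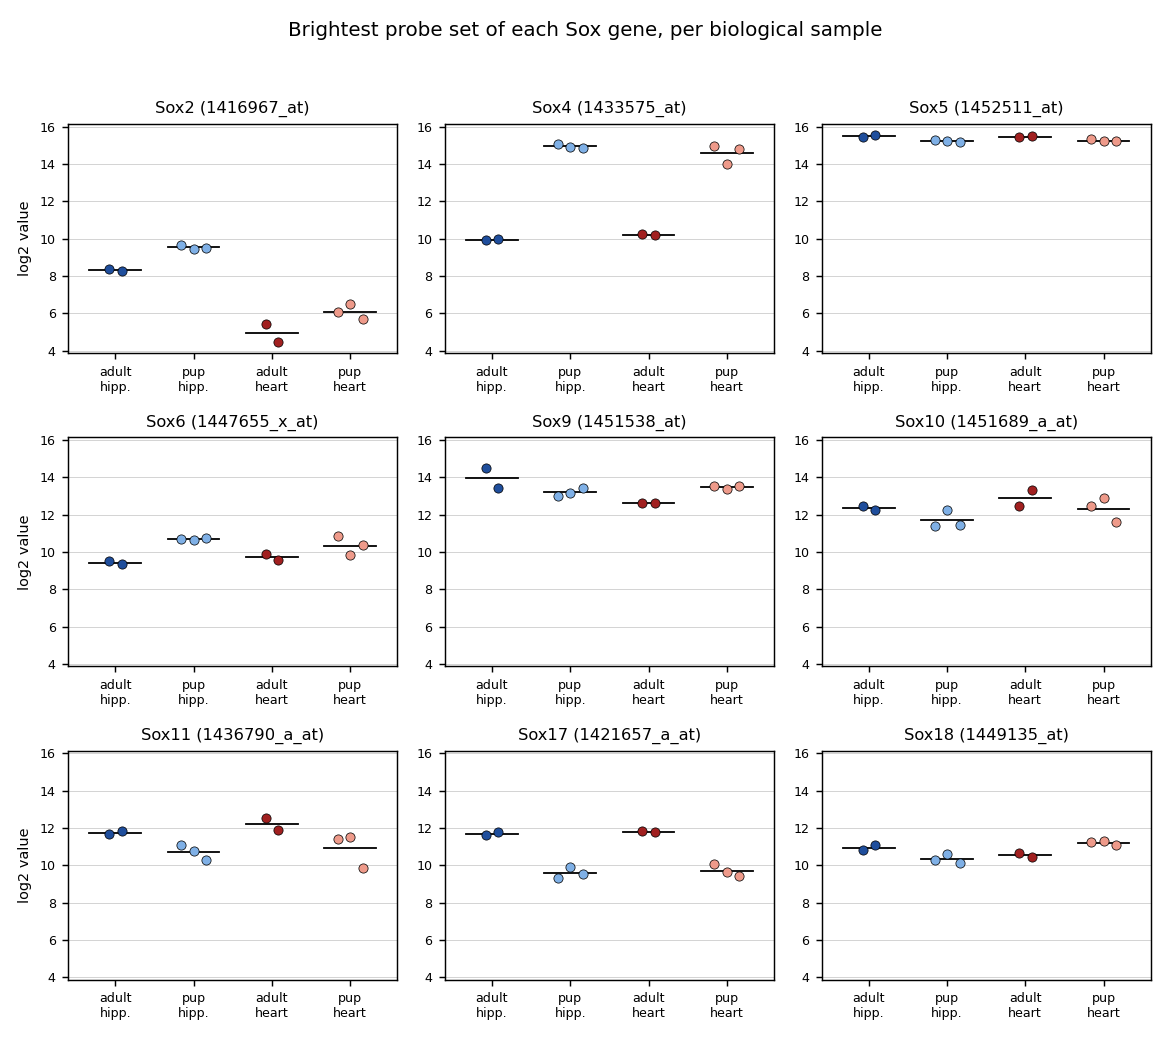
Log2 value (y axis) of the brightest probe set of each of the 9 genes in adult hippocampus, pup hippocampus, adult heart and pup heart (x axis), with a point per biological sample and a line at the group mean. Sox4 lay between 9.91 and 10.25 in the adult samples and between 14.02 and 15.07 in the pup samples, Sox17 was higher in adults in both tissues, and Sox2 was higher in hippocampus at both ages.

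Sox4, a factor of immature and migrating neurons that also acts in the outflow tract and in B cells, had the lowest adult values relative to pups of all members. Its brightest probe set, 1433575_at, read 9.91 and 9.96 in adult hippocampus, against 15.07, 14.93 and 14.83 in pup hippocampus. In heart the same probe set read 10.25 and 10.19 in adults, against 14.96, 14.02 and 14.79 in pups. Every adult sample lay below every pup sample, in each tissue. The probe set was 32.1-fold lower in adult hippocampus (log2 difference -5.01, SE 0.29, adjusted p = 0.00011) and 20.7-fold lower in adult heart (-4.37, SE 0.29, adjusted p = 0.000146). Its tissue differences were small, -0.28 in adults (SE 0.32, adjusted p = 0.583) and 0.35 in pups (95% interval -0.23 to 0.94), and neither was called. The age difference itself differed between hippocampus and heart by -0.63 (-1.56 to 0.29), which was not called.

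Other probe sets of Sox4 were also lower in adults. The probe set 1419156_at read 7.83 and 7.69 in adult hippocampus, against 11.19, 11.16 and 11.29 in pup hippocampus. In heart it read 7.53 and 8.13 in adults, against 11.68, 10.52 and 11.52 in pups. Both tissues thus showed adult and pup samples apart by over 2 log2 units, with differences of -3.46 (SE 0.35, adjusted p = 0.000825) in hippocampus and -3.41 (SE 0.35, adjusted p = 0.000625) in heart. A probe set of the same sequence record, 1419155_a_at, read 9.06 and 8.71 in adult hippocampus, against 11.89, 11.51 and 11.48 in pup hippocampus. In heart, 1419155_a_at read 8.62 and 8.86 in adults, against 11.90, 11.50 and 9.98 in pups, with pup heart replicate 3 the lowest of the pups. It was 6.68-fold lower in adult hippocampus (-2.74, SE 0.48, adjusted p = 0.00706) and 5.24-fold lower in adult heart (-2.39, SE 0.48, adjusted p = 0.00826). Its hippocampal call ended without adult hippocampus replicate 1 (-2.91, adjusted p = 0.0513) or replicate 2 (-2.57, adjusted p = 0.0591), and its heart call without adult heart replicate 1 (-2.27, adjusted p = 0.0715). The probe set 1455867_at read 7.58 and 8.09 in adult hippocampus, against 10.10, 9.71 and 10.76 in pup hippocampus. In heart, 1455867_at read 8.90 and 8.84 in adults, against 11.33, 9.41 and 10.40 in pups. It was lower in adult hippocampus (-2.35, SE 0.51, adjusted p = 0.0158), while the heart difference of -1.51 did not pass (SE 0.51, adjusted p = 0.0633). The hippocampal call of 1455867_at ended without adult hippocampus replicate 1 (-2.10, adjusted p = 0.122), adult hippocampus replicate 2 (-2.60, adjusted p = 0.0628) or pup hippocampus replicate 3 (-2.07, adjusted p = 0.0521).

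The probe sets of Sox4 did not all move one way. The probe set 1443778_at read 9.81 and 10.20 in adult hippocampus, against 8.87, 9.01 and 8.54 in pup hippocampus. In heart, 1443778_at read 12.08 and 11.81 in adults, against 9.83, 10.20 and 9.56 in pups. It was higher in adults, by 1.20 in hippocampus (SE 0.28, adjusted p = 0.0209) and by 2.08 in heart (SE 0.28, adjusted p = 0.00152), the opposite of the 3 probe sets that fell in both tissues. It was also lower in hippocampus than in heart, by -1.94 in adults (adjusted p = 0.00236) and -1.06 in pups (adjusted p = 0.0196). The hippocampal age call ended without adult hippocampus replicate 1 (1.40, adjusted p = 0.0761), adult hippocampus replicate 2 (1.00, adjusted p = 0.15) or pup hippocampus replicate 3 (1.06, adjusted p = 0.0661). The pup tissue call ended without pup hippocampus replicate 1 (-1.09, adjusted p = 0.054), pup hippocampus replicate 3 (-0.92, adjusted p = 0.0725) or pup heart replicate 2 (-0.89, adjusted p = 0.057).

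A second probe set designed from the same record as 1443778_at, 1458332_x_at, read 9.82 and 10.16 in adult hippocampus, against 9.08, 9.74 and 9.11 in pup hippocampus. In heart, 1458332_x_at read 11.69 and 11.77 in adults, against 10.36, 10.36 and 9.63 in pups. It was higher in adult than in pup heart by 1.61 (SE 0.32, adjusted p = 0.00734) and lower in adult hippocampus than in adult heart (-1.73, SE 0.35, adjusted p = 0.0069), and the hippocampal age difference of 0.68 did not pass (adjusted p = 0.178). The heart call ended without adult heart replicate 1 (1.65, adjusted p = 0.0529) or replicate 2 (1.57, adjusted p = 0.055), and the adult tissue call without adult hippocampus replicate 1 (-1.57, adjusted p = 0.0534). The remaining probe sets, 1449370_at and 1419157_at, share their sequence record with 1419156_at and 1419155_a_at but passed in no comparison. Their age differences were -0.75 and 0.84 in hippocampus, with adjusted p of 0.282 and 0.087, and 0.38 and 0.18 in heart, with adjusted p of 0.593 and 0.711. The direction for Sox4 therefore holds for 4 of 8 probe sets in hippocampus and 3 of 8 in heart, among them the brightest, and 1 of 8 and 2 of 8 were called the other way.

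**Figure D2:**
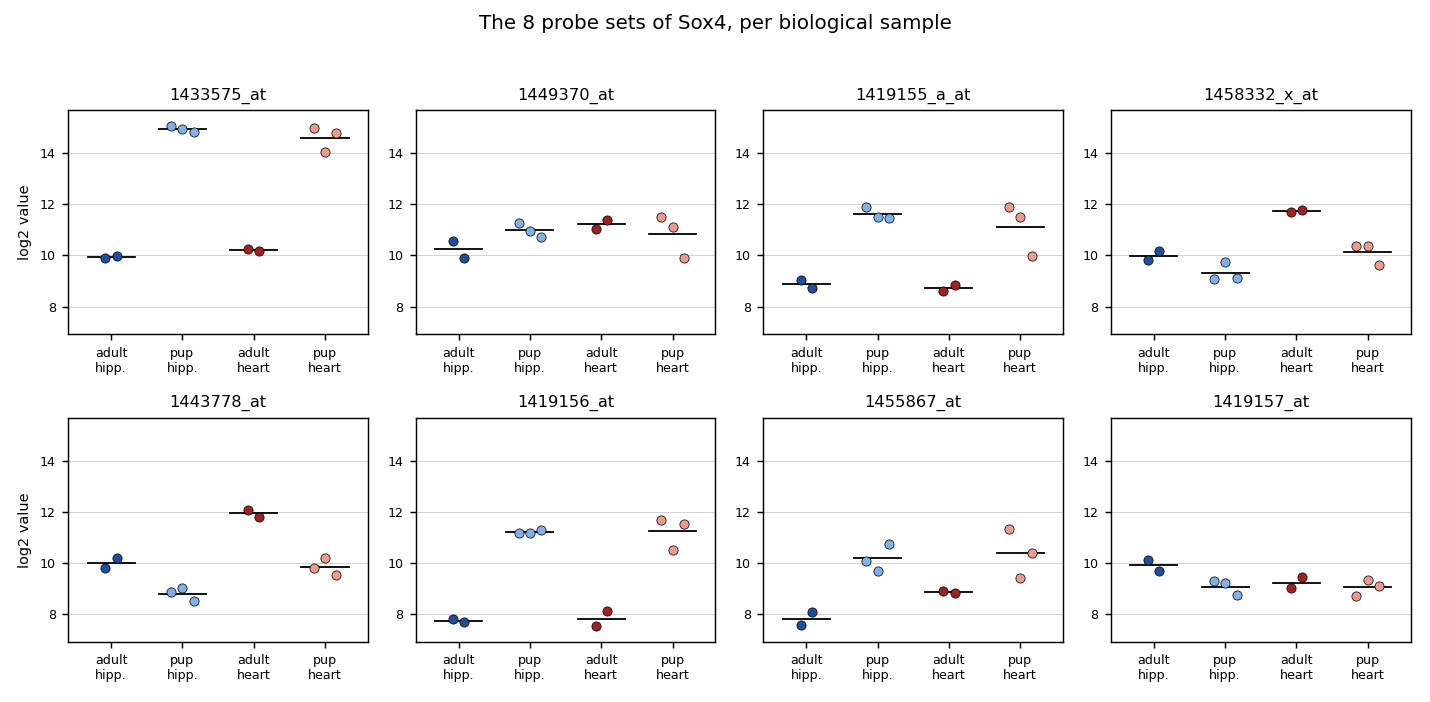
Log2 value (y axis) of the 8 Sox4 probe sets in adult hippocampus, pup hippocampus, adult heart and pup heart (x axis), with a point per biological sample and a line at the group mean. In 1433575_at, 1419155_a_at and 1419156_at the adult samples lay below the pup samples in both tissues, and in 1443778_at they lay above them in hippocampus (9.81 and 10.20 in adults) and in heart (12.08 and 11.81 in adults).

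Sox11, the relative of Sox4 in the C subgroup, promotes neuronal differentiation and neurite growth. Its brightest probe set, 1436790_a_at, read 11.65 and 11.83 in adult hippocampus, against 11.09, 10.76 and 10.28 in pup hippocampus. In heart, 1436790_a_at read 12.52 and 11.88 in adults, against 11.39, 11.51 and 9.84 in pups. The adult samples were above the pup samples in both tissues, but the differences of 1.03 (SE 0.49, adjusted p = 0.183) and 1.29 (SE 0.49, adjusted p = 0.0914) did not pass. Hippocampus was not called against heart either, with a difference of -0.46 in adults (adjusted p = 0.59). In pups the means were 10.71 in hippocampus and 10.91 in heart. The technical arrays of an adult heart replicate differed by up to 1.97 in this probe set.

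A different pattern was seen in 1429372_at, which read 8.59 and 8.56 in adult hippocampus, against 11.11, 10.74 and 9.75 in pup hippocampus. In heart, 1429372_at read 9.26 and 9.21 in adults, against 8.45, 8.50 and 7.79 in pups. The pup hippocampus samples were above all others. The probe set was 3.87-fold lower in adult hippocampus than in pup hippocampus (-1.95, SE 0.39, adjusted p = 0.0118), and in pups 4.87-fold higher in hippocampus than in heart (2.28, SE 0.35, adjusted p = 0.00183). In heart the age difference ran the other way, 0.99, and did not pass (adjusted p = 0.105). The age difference was lower in hippocampus than in heart (-2.94, SE 0.55, adjusted p = 0.0226). The hippocampal age call ended without adult hippocampus replicate 1 (-1.97, adjusted p = 0.0816) or replicate 2 (-1.94, adjusted p = 0.0736). The difference between tissues was not called without adult hippocampus replicate 1 (-2.96, adjusted p = 0.0948), adult hippocampus replicate 2 (-2.93, adjusted p = 0.089), pup hippocampus replicate 2 (-2.84, adjusted p = 0.0583), adult heart replicate 1 (-2.92, adjusted p = 0.0942) or adult heart replicate 2 (-2.97, adjusted p = 0.0866).

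Further Sox11 probe sets were higher in hippocampus of pups than in their heart. The probe set 1453002_at read 8.76 and 9.21 in adult hippocampus, against 10.60, 10.46 and 10.36 in pup hippocampus. In heart, 1453002_at read 8.71 and 7.53 in adults, against 8.17, 9.19 and 9.53 in pups. Between pup tissues it was 1.51 higher in hippocampus (SE 0.40, adjusted p = 0.0311), and the age difference in hippocampus, -1.49, just missed the threshold (SE 0.44, adjusted p = 0.0504). The probe set 1429051_s_at read 8.65 and 8.51 in adult hippocampus, against 8.53, 8.51 and 8.90 in pup hippocampus. In heart, 1429051_s_at read 7.46 and 7.63 in adults, against 7.27, 7.80 and 5.94 in pups. Between pup tissues it was 1.64 higher in hippocampus (SE 0.41, adjusted p = 0.0242) and had nearly equal levels in adult and pup hippocampus (-0.07, 95% interval -1.08 to 0.95). The call of 1453002_at ended without pup hippocampus replicate 1 (1.45, adjusted p = 0.0949), replicate 2 (1.52, adjusted p = 0.0837) or replicate 3 (1.57, adjusted p = 0.0701), or without pup heart replicate 1 (1.11, adjusted p = 0.0825) or replicate 2 (1.62, adjusted p = 0.0526). The call of 1429051_s_at ended without pup hippocampus replicate 1 (1.70, adjusted p = 0.061), replicate 2 (1.71, adjusted p = 0.0594) or replicate 3 (1.52, adjusted p = 0.0813). The probe sets 1453125_at and 1431225_at passed in no comparison, with pup tissue differences of 0.43 and 1.00 (adjusted p = 0.478 and 0.0785).

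For comparison with the C subgroup, 18 genes known from immature neurons, each by its brightest probe set, were counted. Over all 18193 genes, 8.26% were higher and 7.7% lower in adult than in pup hippocampus, and 10.9% were higher and 9.7% lower in adult than in pup heart. In hippocampus 7 of the 18 were lower in adults, 10 did not pass and 1 was higher, and the list had a median difference of -0.69 against 0.09 over all genes. Neurod1, a factor of granule neurons (-4.72), Tubb2b, a tubulin of growing neurites (-4.30), Stmn2, a microtubule regulator of growth cones (-3.16), and Cd24a, a surface protein of young neurons (-4.87), were lower in adults. Mex3a, which encodes an RNA-binding protein, was the gene that was higher, by 3.18. In heart 2 of the 18 were lower in adults and 3 higher, with a median of -0.32 against 0.07 over all genes. The mean level of the list was 11.51 to 11.57 in adult hippocampus samples, 12.81 to 12.84 in pup hippocampus, 10.57 to 10.67 in adult heart and 10.78 to 11.07 in pup heart.

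Sox2, a factor of neural stem cells and of the adult radial glia of the dentate gyrus, had a single probe set, 1416967_at, and the largest tissue differences of the members. It read 8.35 and 8.27 in adult hippocampus, against 9.64, 9.46 and 9.52 in pup hippocampus. In heart it read 5.45 and 4.47 in adults, against 6.08, 6.48 and 5.72 in pups. Every hippocampus sample was above every heart sample. The heart values lay far below the table median of 8.85, and no detection call was used here, so the folds below describe the array values and whether the heart values exceed background is not known. The probe set was 10.2-fold higher in adult hippocampus than in adult heart (3.35, SE 0.36, adjusted p = 0.000404) and in pups 10.9-fold higher in hippocampus than in heart (3.45, SE 0.29, adjusted p = 4.56e-05). Within each tissue the adult samples were below the pup samples, by -1.23 in hippocampus (SE 0.33, adjusted p = 0.0347) and -1.14 in heart (SE 0.33, adjusted p = 0.0371), and the difference between these was near 0 (-0.09, 95% interval -1.13 to 0.95).

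The age calls of Sox2 were near the threshold, unlike its tissue calls, which were kept when each sample was left out. The hippocampal age call ended without adult hippocampus replicate 1 (-1.27, adjusted p = 0.149) or replicate 2 (-1.19, adjusted p = 0.162) and without pup hippocampus replicate 1 (-1.18, adjusted p = 0.0822), 2 (-1.27, adjusted p = 0.0733) or 3 (-1.24, adjusted p = 0.0826). The heart age call ended without adult heart replicate 2 (-0.65, adjusted p = 0.287), pup heart replicate 1 (-1.14, adjusted p = 0.0705) or 2 (-0.94, adjusted p = 0.0764), and with any of the 5 hippocampus samples left out, where the difference stayed at -1.14 and the adjusted p was 0.0533 to 0.0568. Technical arrays of an adult heart replicate differed by up to 1.38 at these low values. Of 12 measured genes of neural stem cells and radial glia, 3 were lower in adult hippocampus and none of them higher, with a median of -0.14. Those were Vim (-3.76) and Tnc (-2.52), which encode a filament and a matrix protein of radial glia, and Fabp7 (-5.59), a lipid carrier of radial glia. In heart 1 of the 12, Vim, was lower in adults (-3.25) and 1, Msi1, an RNA-binding protein of stem cells, was higher (1.38), with a median of -0.21. The mean level of this list was 10.20 to 10.25 in adult hippocampus samples and 11.17 to 11.32 in pup hippocampus samples.

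**Figure D3:**
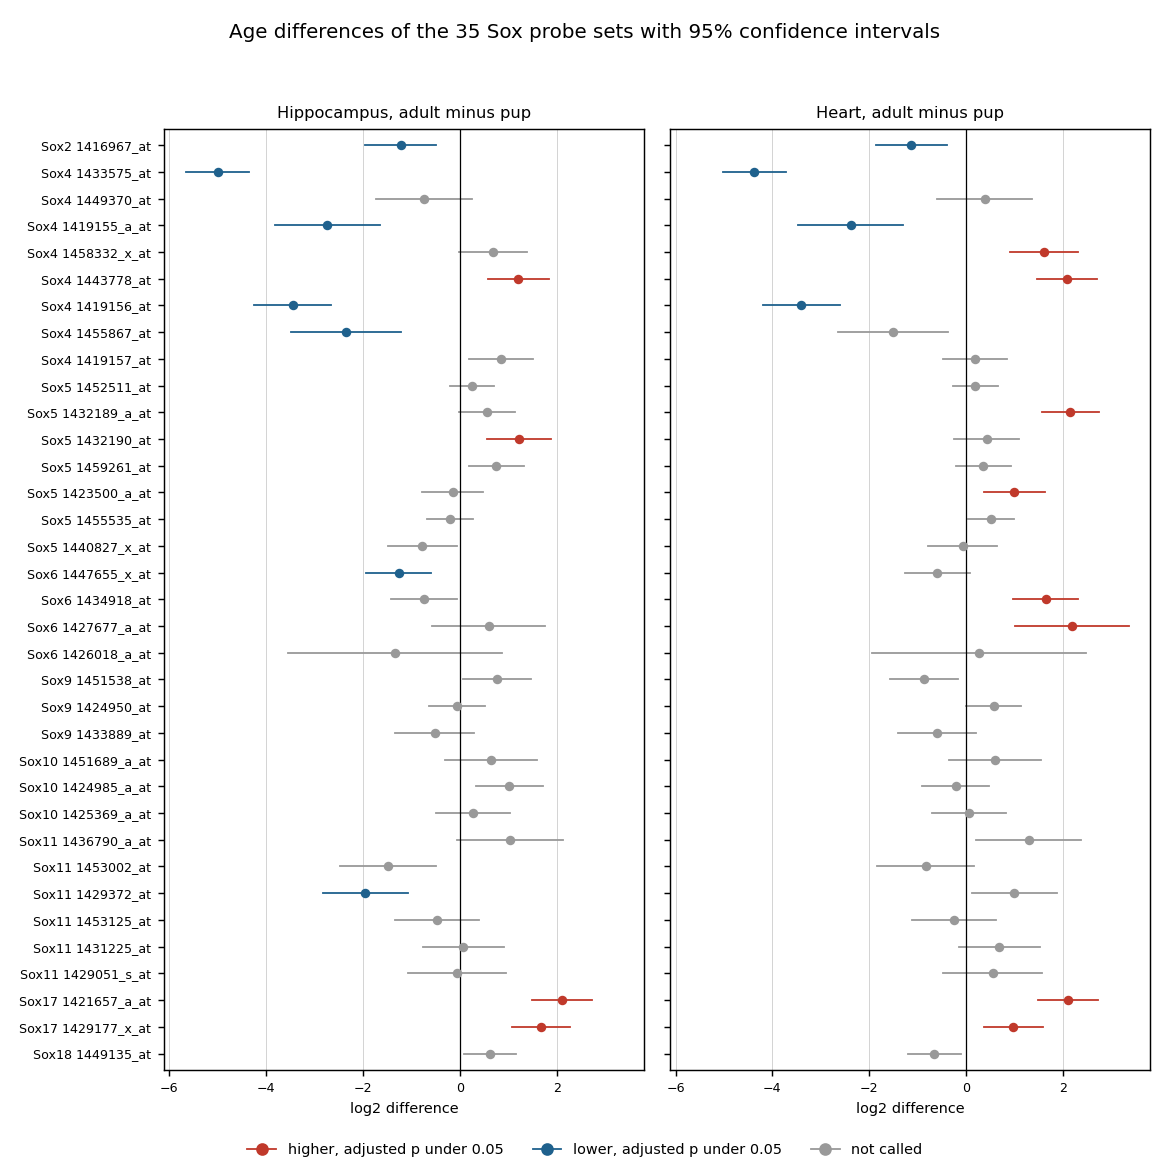
Log2 difference of adult minus pup (x axis) for each of the 35 Sox probe sets (y axis, by gene) in hippocampus (left) and heart (right), with the point at the limma estimate and the bar as its 95% confidence interval. Red marks probe sets higher in adults (4 in hippocampus, 8 in heart), blue those lower (7 in hippocampus, 4 in heart) and grey those not called.

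Sox5, a D subgroup factor of deep-layer cortical neurons and of cartilage, had a brightest probe set that was called in no comparison. The probe set 1452511_at read 15.43 and 15.54 in adult hippocampus, against 15.29, 15.24 and 15.18 in pup hippocampus. In heart, 1452511_at read 15.42 and 15.47 in adults, against 15.31, 15.22 and 15.23 in pups. These values lie near 16.0, the highest value in the table, and the 99th percentile of all values was 15.4. Its age differences were 0.25 in hippocampus (95% interval -0.21 to 0.71) and 0.19 in heart (-0.27 to 0.65), and values this close to the top of the scale leave little room above them.

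The calls of Sox5 came from its dimmer probe sets. The probe set 1432189_a_at read 10.25 and 9.63 in adult hippocampus, against 9.38, 9.58 and 9.22 in pup hippocampus. In heart, 1432189_a_at read 11.38 and 11.52 in adults, against 9.17, 9.46 and 9.27 in pups. Only the adult heart samples stood apart, 4.44-fold above pup heart (2.15, SE 0.26, adjusted p = 0.00106), and adult hippocampus was lower than adult heart (-1.51, SE 0.28, adjusted p = 0.00523). The hippocampal age difference of 0.55 did not pass (adjusted p = 0.183), and the age difference was lower in hippocampus than in heart (-1.60, SE 0.37, adjusted p = 0.0461). The adult tissue call ended without adult hippocampus replicate 2 (-1.20, adjusted p = 0.0512). The difference between the age differences was not called in 9 of the 10 fits that left out a sample, all but that without pup heart replicate 2, where the difference was -1.91 to -1.29 and the adjusted p 0.0523 to 0.161.

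A second probe set of the same record, 1432190_at, read 9.99 and 10.67 in adult hippocampus, against 9.12, 9.23 and 8.98 in pup hippocampus. In heart, 1432190_at read 9.95 and 9.76 in adults, against 9.82, 9.41 and 9.07 in pups. It was higher in adult hippocampus (1.22, SE 0.30, adjusted p = 0.025), but technical arrays of an adult replicate differed by up to 1.36 in hippocampus and 2.07 in heart. That call ended without any 1 of the 5 hippocampus samples: without adult hippocampus replicate 1 (1.56, adjusted p = 0.0555) or 2 (0.88, adjusted p = 0.193), or pup hippocampus replicate 1 (1.23, adjusted p = 0.0575), 2 (1.28, adjusted p = 0.0539) or 3 (1.16, adjusted p = 0.0736). The probe set 1423500_a_at read 7.68 and 7.28 in adult hippocampus, against 7.92, 7.65 and 7.33 in pup hippocampus. In heart, 1423500_a_at read 7.29 and 7.38 in adults, against 6.56, 6.47 and 6.00 in pups. Pup heart was the lowest group, with adult heart 1.00 above it (SE 0.28, adjusted p = 0.0331) and pup hippocampus 1.29 above pup heart (SE 0.25, adjusted p = 0.00711). Its age call ended without pup hippocampus replicate 2 (1.00, adjusted p = 0.052), adult heart replicate 1 (1.04, adjusted p = 0.132) or 2 (0.95, adjusted p = 0.155), or pup heart replicate 3 (0.82, adjusted p = 0.0695).

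Between pup tissues, Sox5 probe sets were called in both directions. The probe set 1455535_at read 7.25 and 7.19 in adult hippocampus, against 7.34, 7.56 and 7.38 in pup hippocampus. In heart, 1455535_at read 7.02 and 6.91 in adults, against 6.43, 6.34 and 6.61 in pups. Between pup tissues it was 0.97 higher in hippocampus (SE 0.19, adjusted p = 0.00834). The probe set 1459261_at read 7.78 and 7.58 in adult hippocampus, against 6.68, 7.21 and 6.89 in pup hippocampus. In heart, 1459261_at read 8.29 and 8.71 in adults, against 8.20, 8.25 and 7.99 in pups. It was lower in pup hippocampus than in pup heart (-1.22, SE 0.23, adjusted p = 0.00581). These 3 pup calls of Sox5 were kept when each sample was left out, although they run in opposite directions. The mean levels were low, at percentile 12.7 among probe sets for 1455535_at, 15.1 for 1423500_a_at and 26.3 for 1459261_at. No detection call was used, so whether the values of these Sox5 probe sets exceed background is not known. The probe set 1440827_x_at, among the lowest values of the array, passed in no comparison and had a pup tissue difference of 0.96 (adjusted p = 0.0528).

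Sox6, the partner of Sox5, acts in chondrocytes, erythroid cells, interneurons and in muscle fibre type. Its brightest probe set, 1447655_x_at, read 9.53 and 9.34 in adult hippocampus, against 10.70, 10.64 and 10.74 in pup hippocampus. In heart, 1447655_x_at read 9.88 and 9.59 in adults, against 10.83, 9.82 and 10.35 in pups. It was 2.4-fold lower in adult hippocampus (-1.26, SE 0.30, adjusted p = 0.0224), and the heart difference of -0.60 did not pass (adjusted p = 0.194). The call ended without adult hippocampus replicate 1 (-1.36, adjusted p = 0.103) or 2 (-1.17, adjusted p = 0.135), or pup hippocampus replicate 1 (-1.26, adjusted p = 0.0536), 2 (-1.29, adjusted p = 0.0547) or 3 (-1.24, adjusted p = 0.063).

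Adult heart had the highest values of the Sox6 probe sets 1434918_at and 1427677_a_at. The probe set 1434918_at read 8.19 and 8.93 in adult hippocampus, against 9.09, 9.52 and 9.29 in pup hippocampus. In heart, 1434918_at read 11.50 and 11.23 in adults, against 9.38, 9.93 and 9.88 in pups. Adult hippocampus was 6.99-fold lower than adult heart (-2.80, SE 0.33, adjusted p = 0.00058), and adult heart was 3.11-fold higher than pup heart (1.64, SE 0.30, adjusted p = 0.00556). The hippocampal age difference was -0.74 and did not pass (adjusted p = 0.129), and the age difference was lower in hippocampus than in heart (-2.38, SE 0.43, adjusted p = 0.0197). The heart age call ended without adult heart replicate 1 (1.50, adjusted p = 0.0577), and the difference between tissues was not called without adult hippocampus replicate 1 (-2.01, adjusted p = 0.092), pup hippocampus replicate 2 (-2.27, adjusted p = 0.0535), or adult heart replicate 1 (-2.24, adjusted p = 0.0929) or 2 (-2.51, adjusted p = 0.0665). The probe set 1427677_a_at read 8.11 and 7.89 in adult hippocampus, against 7.34, 7.60 and 7.29 in pup hippocampus. In heart, 1427677_a_at read 10.13 and 10.18 in adults, against 7.30, 7.32 and 9.30 in pups, with pup heart replicate 3 well above the other pup hearts.

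For 1427677_a_at, adult heart was higher than pup heart by 2.18 (SE 0.52, adjusted p = 0.0173), and adult hippocampus was lower than adult heart (-2.16, SE 0.57, adjusted p = 0.0244). The heart call of 1427677_a_at ended without adult heart replicate 1 (2.20, adjusted p = 0.0965) or 2 (2.16, adjusted p = 0.0947). Its adult tissue call ended without adult hippocampus replicate 1 (-2.27, adjusted p = 0.0837) or 2 (-2.05, adjusted p = 0.119), or adult heart replicate 1 (-2.18, adjusted p = 0.0998) or 2 (-2.14, adjusted p = 0.105). The fourth Sox6 probe set, 1426018_a_at, varied within groups and passed in no comparison. It read 9.53 in pup hippocampus replicate 1, against 6.00 and 5.80 in replicates 2 and 3, and technical arrays of an adult heart replicate differed by up to 2.77.

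Genes known from cell types of the D subgroup were counted with age, where 8.26% of all genes were higher and 7.7% lower in hippocampus. Of 12 genes of interneurons from the medial ganglionic eminence, 1, Lhx6, a factor of these interneurons, was higher in adult hippocampus (1.47), and none of the others passed, with a median of 0.06. In heart 0 of the 12 passed with limma and 0 had an unadjusted p under 0.05, beside the 10.9% and 9.7% of all genes called higher and lower. Of 4 measured erythroid genes, 1, Hba-a1, a haemoglobin chain, was higher in adult heart (2.42), while Slc4a1, the red cell anion exchanger, had a difference of -1.79 that did not pass (adjusted p = 0.0912). The median of the 4 was -0.08 in heart, and in hippocampus none passed and 1 had an unadjusted p under 0.05. Of 13 genes of cartilage and valve matrix, 2 were lower in adult heart, Postn (-6.97), a matrix protein of valves and fibroblasts, and Matn4 (-0.99), and in hippocampus Postn was lower (-2.04) and Vcan, a proteoglycan, higher (1.35).

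**Figure D4:**
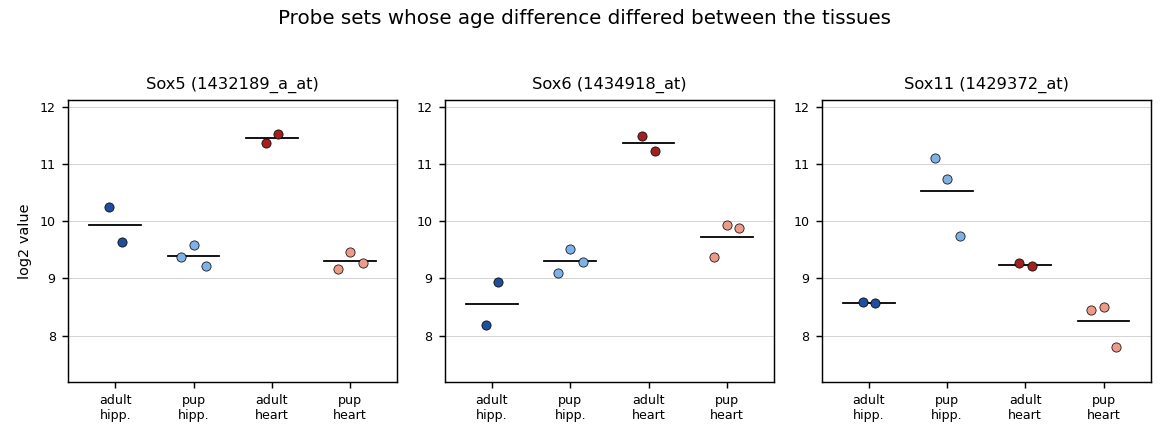
Log2 value (y axis) of Sox5 1432189_a_at, Sox6 1434918_at and Sox11 1429372_at in adult hippocampus, pup hippocampus, adult heart and pup heart (x axis), with a point per biological sample and a line at the group mean. Adult heart was the highest group for Sox5 and Sox6, pup hippocampus was the highest for Sox11, and the age difference in hippocampus minus that in heart was -1.60, -2.38 and -2.94.

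Those 3 were the only member probe sets whose age difference was called as differing between tissues, all lower in hippocampus than in heart, where 2.37% of all probe sets were called lower and 1.18% higher. Fewer of all probe sets were called without any 1 of the adult samples or the pup hippocampus samples. The count of 3 was 0 without adult hippocampus replicate 1, pup hippocampus replicate 2, adult heart replicate 1 or adult heart replicate 2, where 8, 7, 6 and 7 member probe sets had an unadjusted limma p under 0.05.

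Between tissues, 4 member probe sets were higher and 6 lower in adult hippocampus than in adult heart, where 10.3% of all probe sets were higher and 11.9% lower. The count of 10 was 5 without adult hippocampus replicate 1, adult hippocampus replicate 2 or adult heart replicate 1, and 6 without adult heart replicate 2. Over all probe sets 22.2% were called between adult tissues with all samples, and fewer in each of these fits. In pups, 7 were higher and 4 lower in hippocampus than in heart, where 7.52% of all probe sets were higher and 6.77% lower. This count of 11 was 6 without pup hippocampus replicate 1 or replicate 3, and 7 without pup heart replicate 2. Over all probe sets the share called between pup tissues fell from 14.3% to 9.7% without pup hippocampus replicate 1. It fell to 10.7% without pup hippocampus replicate 3 and to 12.3% without pup heart replicate 2. The probe sets called at both ages were 3, Sox2 1416967_at and Sox9 1433889_at, higher in hippocampus, and Sox4 1443778_at, lower. The share of all probe sets called between tissues at both ages was not counted. The median difference over the 35 was -0.08 in adults and 0.03 in pups, beside -0.06 and -0.10 over all probe sets.

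**Figure D5:**
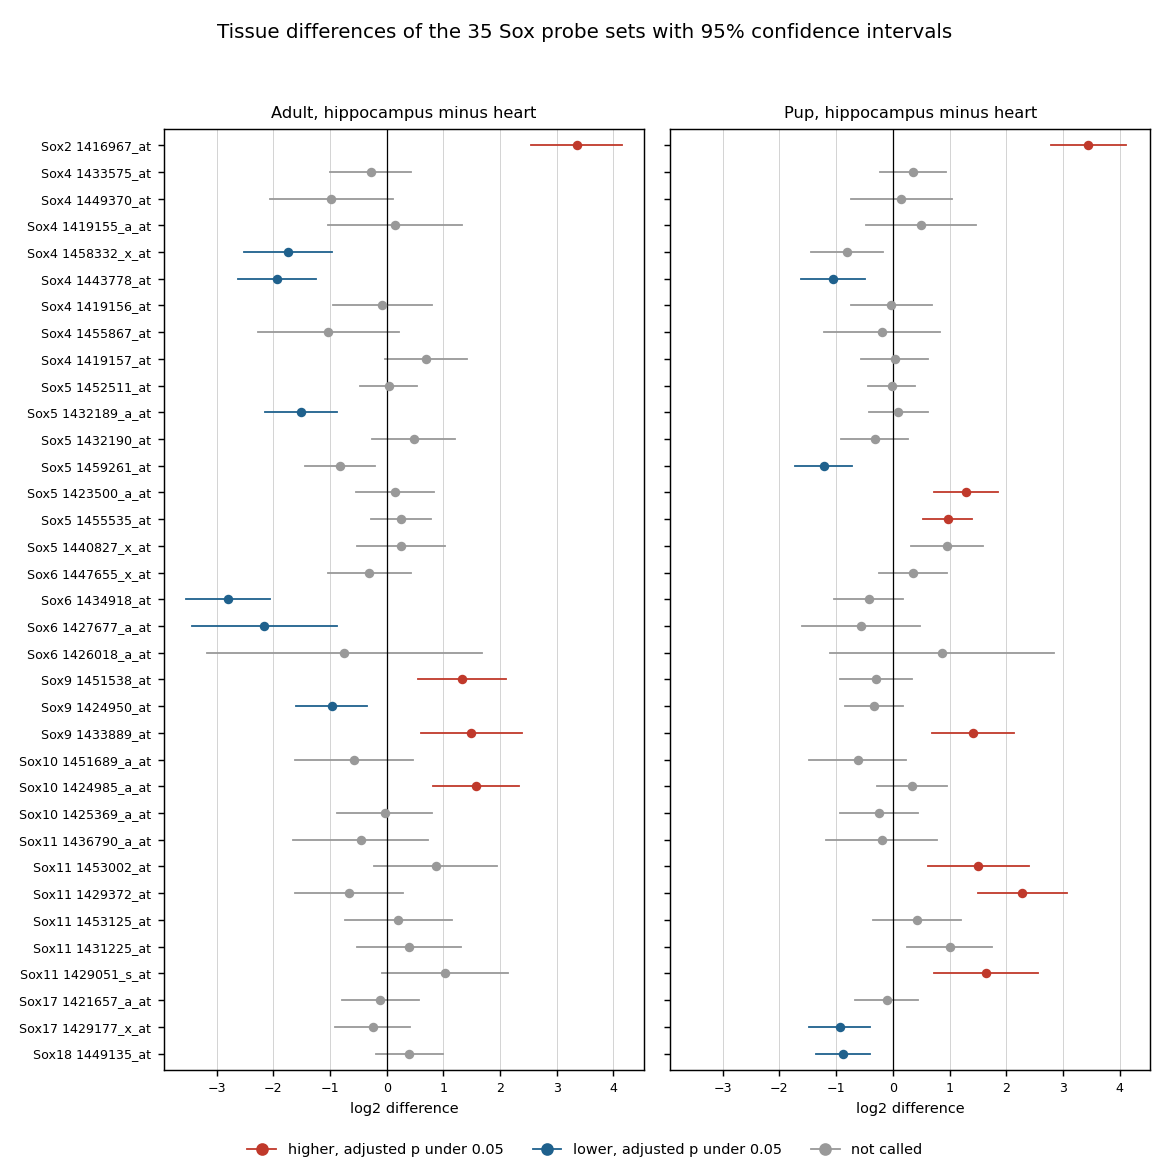
Log2 difference of hippocampus minus heart (x axis) for each of the 35 Sox probe sets (y axis, by gene) in adults (left) and pups (right), with the point at the limma estimate and the bar as its 95% confidence interval. Red marks probe sets higher in hippocampus (4 in adults, 7 in pups), blue those lower (6 in adults, 4 in pups) and grey those not called, and Sox2 lay farthest to the right in both panels (3.35 and 3.45).

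Sox9, an E subgroup factor of astrocytes, cartilage and heart valves, was not called with age in any of its 3 probe sets. The brightest, 1451538_at, read 14.50 and 13.42 in adult hippocampus, against 13.00, 13.14 and 13.44 in pup hippocampus. In heart, 1451538_at read 12.64 and 12.60 in adults, against 13.54, 13.37 and 13.55 in pups. It was 2.53-fold higher in adult hippocampus than in adult heart (1.34, SE 0.35, adjusted p = 0.0225), and adult hippocampus replicate 1 stood above replicate 2. Between pup tissues its difference of -0.30 did not pass (adjusted p = 0.557). Technical arrays differed by up to 1.04 in an adult hippocampus replicate and 1.81 in an adult heart replicate. With technical array 1 alone the adult tissue call was lost. The age differences were 0.76 in hippocampus (adjusted p = 0.136) and -0.87 in heart (adjusted p = 0.0828), and the difference between these, 1.63, did not pass (SE 0.45, adjusted p = 0.0776). The adult tissue call ended without adult hippocampus replicate 1 (0.80, adjusted p = 0.15), adult heart replicate 1 (1.35, adjusted p = 0.0933) or adult heart replicate 2 (1.32, adjusted p = 0.099).

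The Sox9 probe set 1433889_at read 7.18 and 7.21 in adult hippocampus, against 7.26, 8.52 and 7.38 in pup hippocampus. In heart, 1433889_at read 5.50 and 5.91 in adults, against 6.18, 6.39 and 6.36 in pups. Its mean level was low, at percentile 9.8 among probe sets, and whether its values exceed background is not known. Hippocampus was higher than heart at both ages, by 1.49 in adults (SE 0.40, adjusted p = 0.0251) and by 1.41 in pups (SE 0.32, adjusted p = 0.0171). The adult call ended without adult hippocampus replicate 1 (1.51, adjusted p = 0.0973) or 2 (1.47, adjusted p = 0.111), or adult heart replicate 1 (1.29, adjusted p = 0.141) or 2 (1.69, adjusted p = 0.0659), and the pup call without pup heart replicate 1 (1.35, adjusted p = 0.053). The probe set 1424950_at, of the same record as the brightest, read 7.44 and 7.32 in adult hippocampus, against 7.49, 7.33 and 7.51 in pup hippocampus. In heart, 1424950_at read 8.40 and 8.29 in adults, against 8.14, 7.78 and 7.42 in pups. It was lower in adult hippocampus than in adult heart (-0.97, SE 0.28, adjusted p = 0.0347), the opposite of the other Sox9 probe sets. This call was lost in 6 of the 10 fits that left out a sample, those without any 1 of the adult samples or without pup hippocampus replicate 1 or 2, with differences of -1.03 to -0.91 and adjusted p of 0.0511 to 0.156.

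Over all genes, 10% were higher and 10.7% lower in adult hippocampus than in adult heart, and 8.24% were higher and 7.27% lower in pup hippocampus than in pup heart. Of 13 astrocyte genes, 5 were higher and 1 lower in adult hippocampus than in adult heart, among them Aldoc (4.17), a glycolytic enzyme, Aldh1l1 (2.77), a folate enzyme, and S100b (2.60), a calcium-binding protein, with a median of 0.67. In pups 5 were also higher in hippocampus and 1 lower, with a median of 0.37. With age in hippocampus, 2 of the 13, Gja1 (2.27), a gap junction protein, and Ntsr2 (1.94), a neurotensin receptor, were higher in adults and 2, Nfia (-3.06), a glial factor, and Aldoc (-1.36), were lower, with a median of -0.10.

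Sox10, which drives the oligodendrocyte lineage and the neural crest, was called in 1 of its 3 probe sets. The brightest, 1451689_a_at, read 12.44 and 12.22 in adult hippocampus, against 11.41, 12.23 and 11.42 in pup hippocampus. In heart, 1451689_a_at read 12.47 and 13.33 in adults, against 12.45, 12.86 and 11.61 in pups. Adult and pup samples overlapped in both tissues, with age differences of 0.64 (95% interval -0.31 to 1.60) and 0.60 (-0.36 to 1.55), and tissue differences of -0.57 in adults (-1.62 to 0.47) and -0.62 in pups (-1.47 to 0.23). The probe set 1424985_a_at read 10.77 and 11.28 in adult hippocampus, against 10.09, 10.14 and 9.79 in pup hippocampus. In heart, 1424985_a_at read 9.23 and 9.67 in adults, against 9.49, 10.14 and 9.38 in pups. It was 2.97-fold higher in adult hippocampus than in adult heart (1.57, SE 0.34, adjusted p = 0.00963), and its age difference in hippocampus, 1.02, did not pass (SE 0.31, adjusted p = 0.0534). Technical arrays of an adult heart replicate differed by up to 1.14, and the tissue call was lost with technical array 1 alone. The call ended without adult hippocampus replicate 2 (1.31, adjusted p = 0.0813) or adult heart replicate 1 (1.35, adjusted p = 0.0752). The probe set 1425369_a_at passed in no comparison, with differences from -0.24 between pup tissues to 0.26 between ages in hippocampus.

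Of 18 measured genes of the oligodendrocyte lineage, 3 were higher and 1 lower in adult hippocampus than in pup hippocampus, with a median of 0.47. Ermn (2.06), Cnp (1.42) and Mal (1.33), which encode myelin-related proteins, were higher, and Pdgfra (-2.15), the receptor of precursor cells, was lower. In heart 4 were higher and 2 lower in adults, with a median of 0.19. Between tissues, 4 were higher and 2 lower in adult hippocampus than in adult heart, and in pups 5 were higher and 2 lower. Olig1, a factor of this lineage, was higher in hippocampus, by 3.62 in adults and 5.47 in pups, and Erbb3, a neuregulin receptor, was lower in hippocampus in adults (-3.31). The mean level of the list was 10.15 to 10.25 in adult hippocampus samples, 9.81 to 9.95 in pup hippocampus, 9.68 to 9.81 in adult heart and 9.30 to 9.67 in pup heart.

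Sox17, a factor of endoderm and of arterial endothelium, was the member whose probe sets were all higher in adults in both tissues. Its brightest probe set, 1421657_a_at, read 11.64 and 11.75 in adult hippocampus, against 9.34, 9.92 and 9.51 in pup hippocampus. In heart, 1421657_a_at read 11.84 and 11.78 in adults, against 10.06, 9.64 and 9.41 in pups. Adults were above pups in every sample, and the differences were 4.3-fold in each tissue, 2.10 in hippocampus (SE 0.27, adjusted p = 0.00204) and 2.10 in heart (SE 0.27, adjusted p = 0.0014). The probe set was at nearly the same level in hippocampus and heart, with tissue differences of -0.11 in adults (95% interval -0.78 to 0.56) and -0.11 in pups (-0.66 to 0.44). Technical arrays differed by up to 1.37 in an adult hippocampus replicate and 1.49 in an adult heart replicate.

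The other Sox17 probe set, 1429177_x_at, read 10.17 and 10.39 in adult hippocampus, against 8.39, 8.68 and 8.77 in pup hippocampus. In heart, 1429177_x_at read 10.57 and 10.48 in adults, against 9.14, 9.83 and 9.67 in pups. It was higher in adults by 1.66 in hippocampus (SE 0.27, adjusted p = 0.00492) and by 0.97 in heart (SE 0.27, adjusted p = 0.0311), and lower in pup hippocampus than in pup heart (-0.93, SE 0.24, adjusted p = 0.0286). The heart call ended without adult heart replicate 1 (0.93, adjusted p = 0.158), adult heart replicate 2 (1.02, adjusted p = 0.119) or pup heart replicate 1 (0.77, adjusted p = 0.0692). The pup tissue call ended without pup hippocampus replicate 1 (-0.82, adjusted p = 0.104), 2 (-0.97, adjusted p = 0.0728) or 3 (-1.01, adjusted p = 0.0523), or pup heart replicate 2 (-0.79, adjusted p = 0.0803) or 3 (-0.87, adjusted p = 0.0509).

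Sox18, which acts in vessels and in the start of lymphatic endothelium, had 1 probe set, 1449135_at. It read 10.80 and 11.09 in adult hippocampus, against 10.28, 10.58 and 10.11 in pup hippocampus. In heart it read 10.66 and 10.43 in adults, against 11.25, 11.28 and 11.07 in pups. The adult samples were above the pup samples in hippocampus and below them in heart, but neither difference passed, 0.62 in hippocampus (SE 0.24, adjusted p = 0.111) and -0.66 in heart (SE 0.24, adjusted p = 0.0849), nor did the difference between these, 1.28 (SE 0.34, adjusted p = 0.0711). Sox18 was lower in pup hippocampus than in pup heart (-0.88, SE 0.22, adjusted p = 0.0229). That call ended without pup hippocampus replicate 1 (-0.86, adjusted p = 0.0747) or 3 (-0.77, adjusted p = 0.081), or pup heart replicate 1 (-0.85, adjusted p = 0.0588) or 2 (-0.84, adjusted p = 0.0561).

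Of 18 measured endothelial genes, 2 were lower and none higher in adult hippocampus, with a median of -0.25, where 7.7% of all genes were lower and 8.26% higher. In heart 6 were lower and 1 higher in adults, with a median of -0.10, where 9.7% of all genes were lower and 10.9% higher. In heart Cdh5 (-3.43), the endothelial cadherin, Kdr (-3.28) and Tek (-2.14), receptors for VEGF and angiopoietin, were lower in adults, and Egfl7 (1.39), a secreted vessel protein, was higher. In hippocampus Cdh5 (-2.03) and Robo4 (-3.05), a guidance receptor of vessels, were lower in adults. Between pup tissues, 8 of the 18 were lower in hippocampus than in heart, led by Cdh5 (-3.58), and none higher, with a median of -1.19. The mean level of the list was 9.29 to 9.49 in adult hippocampus samples, 9.49 to 9.64 in pup hippocampus, 10.00 to 10.17 in adult heart and 10.66 to 10.85 in pup heart. Of 5 measured lymphatic genes, 2, Lyve1 (1.43), a hyaluronan receptor, and Prox1 (1.65), the lymphatic master factor, were higher in adult heart and none lower, and 2, Reln (-2.04) and Pdpn (-1.60), were lower in adult hippocampus. These lists were described and not tested as sets, and their part in the Sox differences was not tested.

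Of 11 other Sox genes, 1 was called with age in each tissue. Sox7, the remaining F subgroup factor of vessels, was lower in adult heart (-1.37, adjusted p = 0.0112) and lower in pup hippocampus than in pup heart (-1.58, adjusted p = 0.00315). Sry, the founding member of the family, was higher in adult hippocampus than in pup hippocampus (1.05) and than in adult heart (1.54), in samples of which the sex of the pups was not given. Of 24 genes that partner or regulate Sox factors, 2 were higher and 3 lower in adult hippocampus, and 4 higher and 4 lower in adult heart. In hippocampus Tcf7l2 (3.58), a Wnt effector, was higher in adults, while Pou3f3 (-2.86), a POU partner factor, and Ctnnb1 (-3.33), beta-catenin, were lower. The median was -0.15 in hippocampus and -0.13 in heart.

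Markers of other cell types in these tissues were counted in the same way. Of 9 measured genes of mature neurons, 1 was higher and 1 lower in adults in each tissue, with medians of -0.29 in hippocampus and 0.61 in heart. At each age 4 were higher in hippocampus than in heart, led by Snap25 (4.26) in adults, 5 did not pass and 0 were lower. The brightest probe set of Camk2a read 14.26 and 14.27 in adult heart, against 13.89 and 13.14 in adult hippocampus. A brightest probe set thus need not follow the cell type. Of 8 fibroblast genes, 4 were lower and none higher in adult heart, among them the collagens Col3a1 (-3.86) and Col1a2 (-4.51), with a median of -1.47, and 1 was higher and 1 lower in adult hippocampus. Of 16 cardiomyocyte genes, 8 were lower in adult heart, with a median of -1.36, and 2, Actc1 (-4.11) and Myh6 (-3.15), were lower in adult hippocampus. Both were unequal among the pup hippocampus samples, as given above. The mean level of the cardiomyocyte list was 9.20 to 9.25 in adult hippocampus samples, 9.36 to 10.70 in pup hippocampus, 13.06 to 13.32 in adult heart and 14.08 to 14.66 in pup heart. Of 7 choroid plexus genes, Ttr, transthyretin, was lower in adults in hippocampus (-4.01) and higher in adults in heart (1.74), and no other passed with age. Of 8 genes of microglia and macrophages, 1 was higher in adult heart, and in hippocampus 0 passed with age in limma's test and 2 had an unadjusted p under 0.05. The part of these cell types in the Sox differences was not tested.

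The genes whose brightest probe set had the log2 pattern most like each member's were named by Pearson's r over the 10 samples, among 16311 genes. The 10 points share groups and arrays, so r mostly reflects the group levels. Sox4 was followed most closely by Ndufc2 (0.994), Prelid1 (0.993) and S100a10 (0.992), and Sox2 by Psd2 (0.990), Zwint (0.989) and Clstn3 (0.986). For Sox17 these were Rep15 (0.980), C3ar1 (0.970) and Rad1 (0.970), and for Sox5 Nav3 (0.974), Ceacam2 (0.970) and Nelfa (0.967). Sox6 was nearest to Zfand3 (0.972), Diablo (0.962) and Bnip3 (0.950), and Sox11 to Trmt5 (0.972), Spg20 (0.971) and Myf6 (0.970). The closest genes were Slc36a3 (0.950), Epor (0.949) and Lyzl1 (0.934) for Sox10, Ung (0.940), Ptpn21 (0.937) and Vav1 (0.913) for Sox18, and Mbtd1 (0.926), Phex (0.923) and Crtac1 (0.909) for Sox9.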

How the data were processed

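Log2 expression values per probe set were used as deposited. The authors hybridized RNA to Affymetrix mouse genome arrays and summarized the probes with RMA 2.0, named in the submitters' processing notes, for which the sources used here give neither background correction nor genome build. RMA is meant to draw arrays to a common scale, but array medians still ran from 8.73 in pup hippocampus to 8.98 in adult heart. Quantile normalization gave median age differences over all probe sets of 0.036 in hippocampus and 0.0024 in heart, against 0.12 and 0.11 as deposited. It called 12 member probe sets for age in each tissue, where 13.8% and 19.8% of all probe sets were called. Values are relative within a probe set, and precision is limited by how many arrays there were. The 14 arrays gave 10 samples after the 2 technical arrays of each adult replicate were averaged. All 45037 probe sets were fitted with limma 3.58.1 in R 4.3.3, with 1 mean per group and 6 residual degrees of freedom, and p-values of each of 5 contrasts were adjusted over all probe sets by the Benjamini-Hochberg method. A probe set was called at an adjusted p under 0.05. Differences are log2, with adults minus pups or hippocampus minus heart. Intervals are 95% confidence intervals of the fit.

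Probe sets were named from the platform annotation: 34945 had 1 gene, 932 several and 9160 none, and the 64 control probe sets were left out. Values per sample are given for member probe sets called in at least 1 of the 4 comparisons of 2 groups and for the brightest probe set of each member. Genes of the lists were taken by the probe set with the highest mean, some stand on more than 1 list, and up to 4 called genes with the lowest p were eligible to be named. The members, lists and tests were chosen with earlier results of these data known. Alternatives covered scaling, technical arrays, low values, probe set types, the groups in the fit, the methods' t-test, the replicate number and leaving out each sample.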

Additional observations from a re-analysis of the deposited data

Results flagged for a closer look

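The age difference of 3 member probe sets differed between hippocampus and heart by limma's test of that difference, with p adjusted over all probe sets. For Sox11 1429372_at the age difference in hippocampus minus that in heart was -2.94 (SE 0.55, adjusted p = 0.0226). For Sox6 1434918_at it was -2.38 (SE 0.43, adjusted p = 0.0197), and for Sox5 1432189_a_at it was -1.60 (SE 0.37, adjusted p = 0.0461). Other probe sets of Sox5, Sox6 and Sox11 were not called in this test. Among the alternatives run, the call was lost in 14 of 19 for Sox5, 5 of 20 for Sox6 and 5 of 20 for Sox11.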

How the results depend on the processing

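No member call reversed under any of the alternatives run. Of 47 calls, 17 were kept when each sample was left out in turn and 30 were lost at least once. With a sample left out, the count of member probe sets called was 4 to 15 for age in hippocampus (11 with all samples), 6 to 13 for age in heart (12), 5 to 11 between adult tissues (10), 6 to 12 between pup tissues (11) and 0 to 3 for the difference of the age differences (3). Calls over all probe sets also became fewer in most of these fits. With only the brightest probe set of each gene, the counts in this order were 4, 3, 2, 2 and 0 of 9, and 2 of the last had an unadjusted limma p under 0.05. Among all genes 16.2%, 20.7%, 19.6%, 16% and 3.69% were called in that setting. Without the probe set types that can match several transcripts, 20 member probe sets remained, of which 7 were called for age in hippocampus, 5 for age in heart and 6 between adult tissues. The shares called among all remaining probe sets were 12.8%, 17.5% and 21.4%. Among probe sets at or above the median level, 6 of 24 were called between adult tissues and 5 between pup tissues, beside 20.2% and 17% of all such probe sets. With only the pup groups in the fit, 6 were called between pup tissues, and with technical array 1 alone, 1 was called for the difference of the age differences. Those settings called 9.72% and 2.84% of all probe sets. The methods' t-test called 5 for age in hippocampus, 0 for age in heart, 0 between adult tissues and 3 between pup tissues after Benjamini-Hochberg adjustment, and 18, 15, 13 and 12 had an unadjusted p under 0.05. Over all probe sets that t-test called 4.19% for age in hippocampus and 4.3% between pup tissues. It called 1 probe set for age in heart and 1 between adult tissues. At the study's false discovery rate of 0.1% the same test called 0 in each, over the members and over all probe sets. The cause of these changes was not tested, other than that some alternatives hold fewer probe sets or samples. With every adult array taken as a replicate, the counts were 14, 16, 14, 12 and 4. Over all probe sets 22.8%, 27.1%, 37.3%, 14% and 10.1% were then called. With all 14 arrays and a random block for the sample, an alternative chosen after seeing the data, the counts were 14, 15, 13, 12 and 4. Over all probe sets 21.2%, 25.6%, 34.6%, 13.7% and 9.05% were then called. Deviations from the group means of same-numbered samples had r of -0.10 to 0.20 over 13 pairs. The 1 pair over 0.1 was pup hippocampus replicate 1 with pup heart replicate 1. With 2 adult replicates per tissue the deviations mirror each other, so the check cannot decide whether equal numbers share an animal. With the replicate block the counts were 9, 10, 10, 11 and 2, where 9.82%, 15.6%, 21.1%, 13.8% and 2.34% of all probe sets were called.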
